A study of Homo sapiens with 7 samples.

Results

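The WNT/beta-catenin pathway was followed through 10 genes in HCT116 cells, a human colorectal carcinoma line: CTNNB1, APC, AXIN2, MYC, RNF43, ZNRF3, TCF7, TCF7L2, NKD1 and EPHB3. They were taken by gene symbol from the count lists, and they are 10 of 15659 symbols with at least 1 read. All 10 were counted in all 6 mRNA libraries and passed the filter on low counts, as did 8921 genes in all. Both groups of cells carried a knockout of DROSHA, the nuclear enzyme that starts microRNA maturation. One group was transfected with a control miRNA and the other with miR-148a-3p, and each gave 3 libraries of polyadenylated RNA taken 48 h later. The labels do not say whether the knockout line is a single clone, which part of DROSHA was lost, or what the control miRNA is. Nothing in the labels makes the replicates separate cultures, and the p-values then describe the spread of these libraries alone, possibly a technical one.

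In the canonical WNT pathway, beta-catenin, the product of CTNNB1, is made continuously. Without a signal, a complex of APC, AXIN, casein kinase 1 and GSK3 phosphorylates beta-catenin for destruction. A WNT ligand bound to Frizzled and LRP receptors stops that complex, and stable beta-catenin then binds TCF and LEF factors on DNA and switches on target genes. Several of those targets, among them AXIN2, NKD1, RNF43 and ZNRF3, encode inhibitors that feed back on the pathway. In the colon the pathway maintains crypt stem cells, and most colorectal cancers activate it by losing APC. HCT116 is known instead for a normal APC gene and a CTNNB1 allele that lacks a serine codon in the phosphorylated stretch of the protein. Counts per gene do not separate alleles, so the libraries do not check that mutation.

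The agent of the comparison was miR-148a-3p. It is shown with the other members of its family because the seed, bases 2 to 8 (capitals), is the part that pairs with target messages and is shared by all 3. The sequences are RefSeq entries of the GRCh38.p14 build.
hsa-miR-148a-3p: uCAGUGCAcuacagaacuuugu
hsa-miR-148b-3p: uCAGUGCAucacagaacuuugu
hsa-miR-152-3p: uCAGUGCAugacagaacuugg
MIR148A lies on chromosome 7, where the mature miR-148a-3p spans 25949922 to 25949943 on the minus strand. No transcript sequences were used here, so sites for this seed in the messages of the 10 genes were not searched.

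The libraries held 630142 to 1564125 reads over 12448 to 13849 genes. Levels are CPM, counts of a gene scaled to a common total over the tested genes with TMM factors. The labels' protocols name a 3' mRNA kit primed with oligo-dT, whose reads are meant to come from transcript ends, so CPM was not divided by length when genes are compared. Read positions, any dependence on length and the priming of each gene were not checked. Of the 11 colon epithelium markers, 8 were counted and 5 passed the filter on low counts, led by KRT18 at a mean of 1160 CPM in the control group. VIL1 had 3 reads and LGALS4 had 1 read over all 6 libraries, while KRT20, CDX1 and MUC2 had no read. CDH1, the epithelial cadherin that holds beta-catenin at junctions, had only 6.62 CPM in the control group. Blood markers were nearly absent, with PTPRC, CD3E, CD14, CD34, LYZ and HBB at 0 and at most 2 reads of the list in a library. Fibroblast and endothelial markers summed to 1516 to 1762 reads in control and 1174 to 2453 in miR-148a-3p libraries, not scaled for depth. VIM made up most, at a mean of 1760 CPM in control and 1720 CPM with miR-148a-3p. COL1A1 followed at 58.1 and 47.8 CPM. COL3A1, PECAM1 and VWF had at most 7 reads each over all 6 libraries, and COL1A2 and CDH5 were at 0. DROSHA was read at 29.9, 18.7 and 18.2 CPM in control, against 13.2, 17.7 and 21.4 CPM in the other group. The knockout is shared by both groups, so these reads do not check the groups' labels.

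No difference between miR-148a-3p and control in any of the 10 genes passed the test. With edgeR's quasi-likelihood test 0 of 10 passed an adjusted p of 0.05 over all genes tested, and adjusted p ranged from 0.770 to 0.994. Only 0.0112% of all tested genes passed, 1 gene of 8921, so the count of 0 among 10 is at the background. At an unadjusted p under 0.05 the count was also 0 of 10, against 6.79% of all tested genes, and DESeq2 and limma-voom called 0 as well. APC was the lowest relative to control, at 0.748 of its level, and ZNRF3 the highest, at 1.39 times. Fitted values were below 0 for 5 genes and above 0 for 5, where 50.5% of all tested genes were below. Their median log2 fold change was 0.045, beside −0.004 over all tested genes. For a single gene, exact permutation of 3 against 3 libraries has a smallest two-sided p of 0.1 and was not run. In bulk RNA, fewer cells with a message and less of it per cell cannot be told apart.

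**Figure D1:**
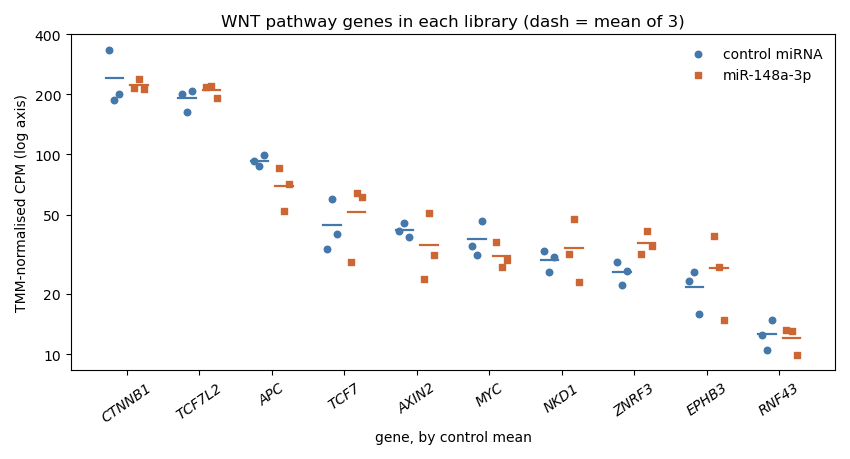
Level of each of the 10 genes in each library as TMM-normalised CPM on a log axis, with control libraries as circles and miR-148a-3p libraries as squares; points within a group run from replicate 1 to 3 from left to right and the dash is the group mean. The groups overlap for 8 genes, while all 3 miR-148a-3p points lie below control for APC and above it for ZNRF3. Among all tested genes the groups did not overlap for 12.8%.

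CTNNB1 (chromosome 3, 41199505 to 41240443), which encodes beta-catenin itself, had the highest mean of the 10 in both groups. It was above TCF7L2 in only 4 of 6 libraries. Its control libraries had 332, 187 and 202 CPM and its miR-148a-3p libraries 216, 238 and 212 CPM. The first control library stood above all the others, and the remaining 5 lay close together. Its 345 reads have an exact 95% Poisson interval of 298 to 369 CPM, which lies above the intervals of both other control libraries (159 to 218 and 174 to 235 CPM). Such intervals cover counting error only. The spread between control libraries was 33.2% of the mean, while counting error alone would give 6.63%; in the miR-148a-3p group the spread was 6.17%. The log2 fold change was −0.12 (SE 0.21, 95% interval −0.54 to 0.30, adjusted p = 0.939 by edgeR), and without control replicate 1 it turned to 0.19. Over all genes, control replicate 1 (−31.4) and miR-148a-3p replicate 3 (34.2) lay at opposite ends of the first principal component, with the other 4 libraries between −8.29 and 13.1.

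APC (chromosome 5, 112707498 to 112846239) encodes the scaffold that holds beta-catenin in the destruction complex. Control libraries had 92.5, 87.5 and 99.0 CPM and miR-148a-3p libraries 85.7, 52.1 and 70.8 CPM. Every miR-148a-3p library was below every control library, but the first lay just under the lowest control. Among all tested genes 6.59% showed the same lower, separated pattern, so finding 1 such gene among 10 is near the background. The log2 fold change was −0.40 (SE 0.24, 95% interval −0.90 to 0.09, adjusted p = 0.770 by edgeR). It moved to −0.61 without miR-148a-3p replicate 1, with an unadjusted p of 0.0414 and an adjusted p of 0.616. Without miR-148a-3p replicate 2 it was −0.23.

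AXIN2 (chromosome 17, 65528563 to 65561648), the inducible AXIN scaffold and a standard readout of pathway activity, was steady in control at 41.4, 45.5 and 38.7 CPM. With miR-148a-3p it had 23.7, 50.9 and 31.3 CPM, so these libraries lay on both sides of the control range. Its spread with miR-148a-3p was 39.7% of the mean, above the 17.5% of counting error. The log2 fold change was −0.27 (SE 0.33, 95% interval −0.94 to 0.40, adjusted p = 0.909 by edgeR). It was −0.004 without miR-148a-3p replicate 1 and −0.64 without replicate 2, so its size rested on those libraries.

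RNF43 and ZNRF3 are membrane ubiquitin ligases that remove Frizzled receptors from the cell surface. RNF43 (chromosome 17, 58352500 to 58417534) was the least abundant of the 10, with 12.5, 10.5 and 14.8 CPM in control and 13.2, 13.0 and 9.88 CPM with miR-148a-3p. These rest on 13, 9 and 13 reads and on 20, 11 and 6 reads. The groups overlapped, and the 95% interval of the log2 fold change ran from −1.08 to 1.00 around −0.043 (SE 0.51, adjusted p = 0.994 by edgeR), the widest of the set.

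ZNRF3 (chromosome 22, 28883572 to 29057488) had 28.9, 22.2 and 26.2 CPM in control and 31.6, 41.4 and 34.6 CPM with miR-148a-3p. All 3 miR-148a-3p libraries were above all control libraries, a pattern shown by 6.22% of tested genes in that direction. Its log2 fold change was 0.46 (SE 0.34, 95% interval −0.22 to 1.15, adjusted p = 0.813 by edgeR). It stayed between 0.35 and 0.56 whichever library was left out, the narrowest such range after TCF7L2. The antisense gene ZNRF3-AS1 overlaps it and had at most 5 reads in a library.

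NKD1 (chromosome 16, 50548396 to 50649249) encodes an inhibitor that binds Dishevelled, the protein that relays the receptor signal. Its levels were 32.7, 25.7 and 30.7 CPM in control and 31.6, 47.3 and 23.0 CPM with miR-148a-3p. The highest and the lowest of the 6 values were both in the miR-148a-3p group. The log2 fold change was 0.20 (SE 0.34, 95% interval −0.50 to 0.90, adjusted p = 0.937 by edgeR), and it turned to −0.084 without miR-148a-3p replicate 2.

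TCF7L2 and TCF7 encode DNA-binding partners of beta-catenin. TCF7L2 (chromosome 10, 112950247 to 113167678), the main factor of this family in intestinal epithelium, had 202, 163 and 209 CPM in control and 217, 221 and 191 CPM with miR-148a-3p. The groups overlapped, and its log2 fold change of 0.13 (SE 0.19, 95% interval −0.26 to 0.52, adjusted p = 0.922 by edgeR) had the narrowest interval of the 10. That interval corresponds to 0.837 to 1.44 times the control level. Without control replicate 2 the value was 0.030, and without control replicate 3 it was 0.20. TCF7 (chromosome 5, 134108218 to 134148210) was uneven in both groups, with 33.7, 59.5 and 39.8 CPM in control and 29.0, 63.9 and 60.9 CPM with miR-148a-3p. Replicate 1 was the lowest library of each group. Its fold change of 0.17 on the log2 scale (SE 0.33, 95% interval −0.50 to 0.84, adjusted p = 0.942 by edgeR) turned to −0.010 without control replicate 1 and to −0.048 without miR-148a-3p replicate 2. TCF7 overlaps the span of VDAC1, a gene with 165 to 381 reads per library and a log2 fold change of 0.064 (SE 0.18, adjusted p = 0.957 by edgeR). The use of strand in counting is not given in the sources used here, so reads in the shared stretch cannot be told apart.

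Within the TCF/LEF family, TCF7L2 supplied most of the reads. It made up 68.6%, 63.6% and 68.7% of the family's summed CPM in control, and 68.7%, 62.3% and 64.8% after miR-148a-3p. TCF7L1 supplied 17.1% ± 3.50 in control and 18.8% ± 3.89 with miR-148a-3p, and TCF7 15.9% ± 6.38 and 16.0% ± 6.02 (SD, n = 3). LEF1 had no read in any library, which allows up to 1.98 to 4.94 CPM per library (3 reads each). The group means of these shares differed by less than 1 SD. This composition was computed after the values had been seen.

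MYC and EPHB3 stand for the output of the pathway. MYC (chromosome 8, 127735434 to 127742951), the transcription factor that drives growth, had 34.7, 31.5 and 46.6 CPM in control and 36.3, 27.2 and 29.6 CPM with miR-148a-3p. The groups overlapped, with a log2 fold change of −0.25 (SE 0.32, 95% interval −0.92 to 0.41, adjusted p = 0.913 by edgeR). It was −0.072 without control replicate 3 and −0.41 without miR-148a-3p replicate 1. EPHB3 (chromosome 3, 184561785 to 184582408), a receptor for ephrin-B ligands that positions cells along the crypt, had 23.1, 25.7 and 15.9 CPM in control. With miR-148a-3p it had 38.9, 27.2 and 14.8 CPM, so the second group spanned the first. The log2 fold change was 0.39 (SE 0.39, 95% interval −0.42 to 1.19, adjusted p = 0.891 by edgeR), and it fell to −0.007 without miR-148a-3p replicate 1.

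**Figure D2:**
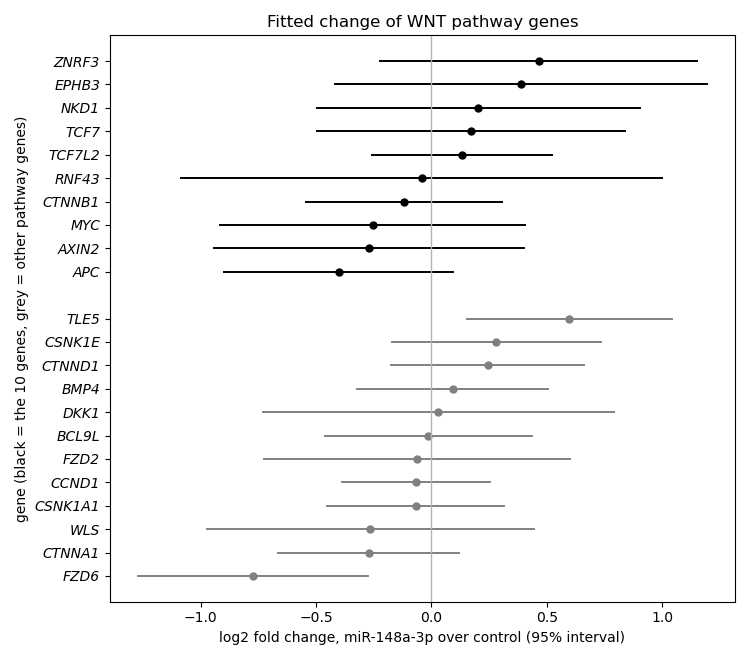
Log2 fold change of miR-148a-3p over control for the 10 genes (black) and the most abundant tested genes of 7 other pathway lists (grey), with 95% intervals from edgeR's quasi-likelihood fit. All 10 black intervals cross 0; among the grey ones FZD6 lies below 0 and TLE5 above it, and neither passed after adjustment over all genes.

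The precision of these fits sets what could have been seen. All 10 intervals held 0. For 9 genes the interval excluded a log2 change of −1 and for 8 it excluded a change of 1. Both were excluded for 7 genes: CTNNB1, APC, AXIN2, MYC, TCF7, TCF7L2 and NKD1. RNF43 could not be bounded on the lower side at this depth, its upper bound lay just under 1, and ZNRF3 and EPHB3 not on the higher side. Changes inside a gene's interval remain compatible with these libraries. The interval is not a detection limit, and a true change outside it could also have been missed by the adjusted test. In simulated counts that test called 48.6% of genes with a true log2 change of 1 in either direction. For a true change of 0.5 it called 5.74%. Each simulation changed 200 genes drawn at any level, while only 1 gene passed in the real fit. The adjusted test is stricter where fewer genes change, and most of the 10 lay below the median level. For these 10 genes the simulated shares may therefore be too high.

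The sign of the change was the same with each library left out for APC, AXIN2, MYC, TCF7L2 and ZNRF3, and it turned at least 1 time for the other 5. The test adjusted over all genes called 0 of the 10 in each of these fits. Leaving out control replicate 1 turned CTNNB1 and TCF7, and leaving out miR-148a-3p replicate 2 turned TCF7 and NKD1. RNF43 turned without control replicate 3 (0.083) or miR-148a-3p replicate 3 (0.056), and EPHB3 without miR-148a-3p replicate 1.

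**Figure D3:**
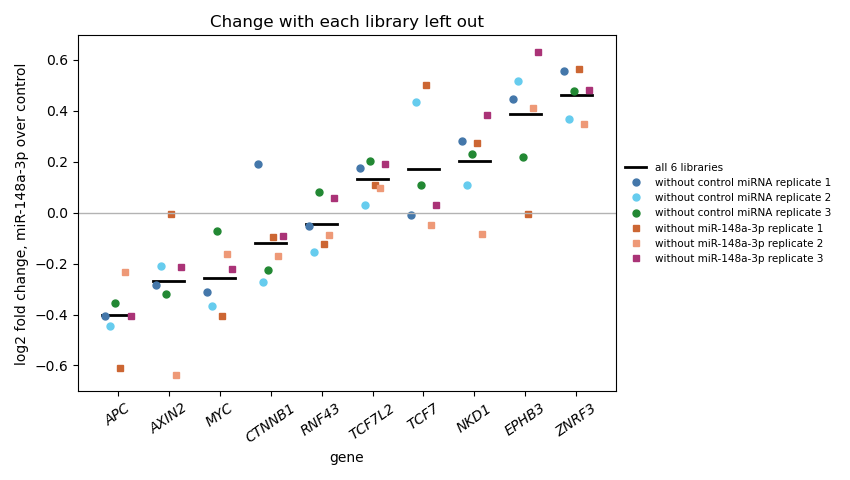
Log2 fold change of each of the 10 genes with all 6 libraries (black bar) and with each library left out in turn (circles, a control library left out; squares, a miR-148a-3p library left out). APC, AXIN2, MYC, TCF7L2 and ZNRF3 keep their sign; CTNNB1 rises from −0.12 to 0.19 without control replicate 1.

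In the control cells the 10 genes fell into 4 levels whose ranges did not overlap. CTNNB1 (240.0 ± 79.9 CPM) and TCF7L2 (192 ± 24.8 CPM; SD, n = 3) were the highest and their ranges overlapped. APC followed at 93.0 ± 5.75 CPM, below every TCF7L2 value in control and above every TCF7 value there. TCF7 (44.3 ± 13.5 CPM), AXIN2 (41.9 ± 3.44), MYC (37.6 ± 7.98), NKD1 (29.7 ± 3.65), ZNRF3 (25.7 ± 3.38) and EPHB3 (21.6 ± 5.05) formed a series in which each overlapped the next. RNF43, at 12.6 ± 2.14 CPM, was below EPHB3 without overlap in control and lower than EPHB3 in 6 of 6 libraries. CTNNB1 and TCF7L2 together held 53.2% to 64.1% of the summed CPM of the 10 genes.

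Against all tested genes, whose median control level was 44.8 CPM, only CTNNB1, TCF7L2 and APC were above the median. CTNNB1 was higher than 91.5% of tested genes, TCF7L2 than 88.6% and APC than 73.7%. The direct targets and feedback inhibitors sat lower: AXIN2 was higher than 47.6%, MYC than 43.7%, NKD1 than 34.3%, ZNRF3 than 29.0% and RNF43 than 5.38%. These are positions within these libraries and carry no test.

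**Figure D4:**
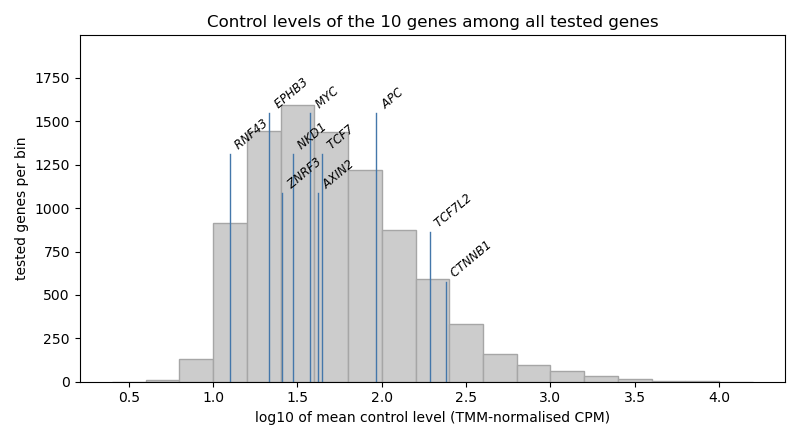
Number of tested genes by log10 of their mean control level in TMM-normalised CPM (grey bars), with the control level of each of the 10 genes marked by a blue line whose height has no meaning. CTNNB1 and TCF7L2 lie towards the right (above 91.5% and 88.6% of tested genes) and APC within the bulk (above 73.7%). RNF43 lies towards the left (above 5.38%).

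The rest of the pathway was read from 100 further genes in 7 lists by role. Of these, 76 had a read in at least 1 library and 41 were tested, where 24 had lower and 17 higher fitted values with a median log2 fold change of −0.041. With edgeR 0 of the 41 passed over all genes tested, where 0.0112% of all tested genes passed. By the same test 2 of the 41, FZD6 and TLE5, had an unadjusted p under 0.05. Over all tested genes that share was 6.79%, so 2 of 41 is not above the background. DESeq2 and limma-voom also called 0 of the 41. The groups did not overlap for 7 of the 41, 4 lower and 3 higher, where 12.8% of all tested genes did not overlap.

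Ligands and secreted antagonists were scarce. Of 25 genes of the ligands, R-spondins and their secretion, 17 had a read and 1 was tested: WLS, the carrier that brings WNT proteins to the cell surface, at 32.8 ± 7.36 CPM in control against 26.6 ± 6.14 CPM (SD, n = 3) with miR-148a-3p. The most abundant ligand, WNT9A, had 3 to 18 reads per library. WNT1 and WNT10B have been reported as miR-148a targets, but WNT1 had 1 read in all 6 libraries together and WNT10B 4, 4 and 3 reads in control and 9, 0 and 1 with miR-148a-3p. No change in either could be measured at this depth. Among 11 secreted antagonists only DKK1, which blocks LRP receptors, was tested. It varied in control, with 14.4, 42.0 and 58.0 CPM, and overlapped the 48.8, 29.6 and 34.6 CPM seen with miR-148a-3p. NOTUM, the secreted enzyme that inactivates WNT proteins, had 2 to 14 reads per library, and FRZB had at most 2; the other 8 antagonists had none.

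Receptors were led by FZD6, a Frizzled. It was at 119, 106 and 88.7 CPM in control and at 56.0, 76.9 and 51.0 CPM with miR-148a-3p, lower in 3 of 3 libraries than in control. The fitted log2 fold change was −0.77 (SE 0.24, unadjusted p = 0.00359), which did not pass over all genes tested (adjusted p = 0.416 by edgeR). Its value stayed between −0.96 and −0.67 with any library left out, with adjusted p no lower than 0.433. FZD2 was at 46.7 ± 21.3 CPM in control, against 44.2 ± 8.33 CPM (SD, n = 3) in the other group. Of 18 receptors 7 were tested, with 6 fitted values lower and 1, that of the co-receptor LRP5 (0.46, SE 0.31), higher; the median was −0.066. LGR5, the R-spondin receptor of crypt stem cells, had no read in any library, and LGR4 was at a mean of 23.3 CPM over all 6.

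Of the destruction complex and Dishevelled genes 12 of 15 were tested, 7 with lower and 5 with higher fitted values (median −0.050). CSNK1A1, the casein kinase that phosphorylates beta-catenin first, was steady in control at 295, 292 and 288 CPM, and had 318, 213 and 301 CPM with miR-148a-3p. CSNK1E, a kinase that acts on Dishevelled, was at 113 ± 17.8 and 138 ± 30.9 CPM (SD, n = 3). AXIN1, the constitutive AXIN, had only 3 to 11 reads per library and was not tested. Of the partners at cell junctions, alpha-catenin (CTNNA1) was at 198 ± 18.6 CPM in control, against 164 ± 13.1 CPM in the other group. The fitted log2 fold change was −0.27 (SE 0.19, adjusted p = 0.807 by edgeR). The p120 catenin gene CTNND1 was at 147 ± 19.0 and 172 ± 31.0 CPM.

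Nuclear factors had 12 of 15 genes tested, 5 with lower and 7 with higher fitted values (median 0.062). TLE5, a short relative of the Groucho corepressors that bind TCF factors, was at 85.7, 111 and 86.5 CPM in control and 121, 151 and 158 CPM with miR-148a-3p. It was higher in 3 of 3 libraries, with a log2 fold change of 0.60 (SE 0.22, unadjusted p = 0.0103) that did not pass over all genes tested (adjusted p = 0.593 by edgeR). BCL9L, a co-activator that binds beta-catenin, was at 110 ± 6.54 and 108 ± 21.5 CPM (SD, n = 3).

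Among 12 other reported targets, 5 were tested (median −0.009, smallest adjusted p 0.852). The cell cycle gene CCND1 was at 3320 ± 187 CPM in control, against 3170 ± 431 CPM in the other group, and in control it ranked 14 among all genes counted. BMP4, a secreted growth factor, was at 887 ± 243 and 944 ± 280 CPM (SD, n = 3). The crypt target genes ASCL2, APCDD1 and PROX1 had no read in any library.

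**Figure D5:**
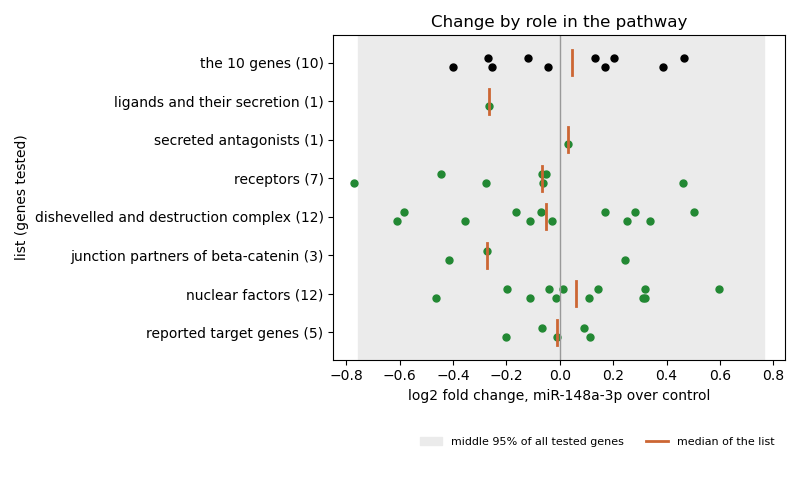
Log2 fold change of miR-148a-3p over control for each tested gene, by role in the pathway (number tested in brackets), with the median of each list as an orange bar and the middle 95% of all tested genes (−0.76 to 0.77) in grey. All tested pathway genes but FZD6 lie inside the grey band.

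The profile of CTNNB1 over the 6 libraries was set beside those of 4121 other genes with a mean of at least 50 CPM, as the mean absolute difference of log2 levels centred on each gene. Among the closest were CNOT6L (0.069) and NAP1L1 (0.073). Both were chosen for this likeness, so their high value in control replicate 1 restates the choice: CNOT6L had 75.1 CPM there and 46.7 to 65.1 CPM in the other libraries.

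Promoter windows of 300 bases from RefSeq (GRCh38.p14) were matched for CTNNB1, APC, TCF7, TCF7L2, RNF43 and EPHB3, 11 windows in all, and not for AXIN2, MYC, NKD1 and ZNRF3. The TCF-type motif ATCAAAG, on either strand, was in 0 of these 11 windows and in 2.62% of all 35116 windows. Of the windows of the other pathway genes 3.03% held it (3 of 99, 1 of SP5 and 2 of CTNNA1). At such shares 11 windows would mostly hold no motif, so their 0 carries no information. Sites outside the windows were not searched.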

How the data were processed

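The 6 mRNA files deposited by the authors list gene symbols with unnormalized read counts; a gene missing from a list was taken as 0. Oligo-dT primed 500 ng of RNA, per the labels' protocols. Per the submitters' processing notes, cutadapt, STAR, Bowtie2 and GRCh38 were used; their roles are not stated there, and counting tool, annotation and strand were not given in the sources used. The small RNA library was left out, since it holds no messages.

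Counts were tested in edgeR 4.0.16 (R 4.3.3) with filterByExpr, TMM factors and the quasi-likelihood F test, group as the only term, and Benjamini-Hochberg adjustment over all genes tested. SE and 95% intervals come from that fit. DESeq2 1.42.0, limma-voom (limma 3.58.1), DESeq2 size factors, 2 other count filters, the replicate number as a block and each library left out were alternatives. The script was tested on simulated counts. Replicates, taken in pairs, varied by 2.58 to 5.80 times the Poisson variance, so none was merged. Named genes beside the 10 were the 2 most abundant of each role list, WNT1, WNT10B, DROSHA and the 3 genes most like CTNNB1, of which 1 is not reported here; LRP5, LGR4, AXIN1, VDAC1, SP5, FRZB and genes named for having no read were chosen after their values were seen. The 10 genes and the lists were chosen with earlier results of these data known. All 135 listed symbols were current; gene spans are RefSeq's.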

Additional observations from a re-analysis of the deposited data

How the results depend on the processing

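None of the 10 genes passed under any of the 12 alternatives, with edgeR, DESeq2 or limma-voom, and their smallest adjusted p was 0.616. Of their 119 alternative values 112 kept the sign. For levels, 0 of 100 alternatives moved by more than 1 SD, a count largely fixed beforehand. Leaving out 1 of 3 libraries cannot move a mean by 1 SD of the same libraries. The other alternative levels only rescaled whole libraries. Genes past the threshold over the whole table numbered 2 with DESeq2, 3 with limma-voom, 18 without the count filter (15659 genes tested), 3 with the replicate block and 1 to 26 with a library left out (26 without control replicate 1); the cause was not tested.

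Whether the replicate number pairs the libraries was not settled, and any pairing was weak. Deviations from the group means correlated at −0.00185 to 0.133 for libraries of the same number. For libraries of different numbers they correlated at −0.133 to 0.0274. Of the 6 libraries, 4 correlated best with their own number. With the block the 10 genes had log2 fold changes of −0.42 to 0.46 and a smallest adjusted p of 0.637.

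With a library left out, log2 fold changes that turned sign ranged from −0.27 to 0.19 for CTNNB1, −0.16 to 0.083 for RNF43, −0.048 to 0.50 for TCF7, −0.084 to 0.38 for NKD1, −0.007 to 0.63 for EPHB3, −0.37 to 0.47 for DKK1, −0.38 to 0.24 for FZD2 (0.058 with limma-voom), −0.19 to 0.090 for CSNK1A1, −0.16 to 0.10 for BCL9L, −0.18 to 0.011 for CCND1, −0.13 to 0.33 for BMP4, −0.17 to 0.18 for CNOT6L and −0.22 to 0.12 for NAP1L1. List medians ranged from −0.086 to 0.095 for the 10 genes, −0.31 to 0.030 for receptors, −0.14 to 0.069 for the destruction complex, −0.15 to 0.18 for nuclear factors and −0.13 to 0.020 for reported targets. Without the count filter, which adds genes with few reads, they were −1.28 for antagonists (3 genes), 0.093 for the destruction complex and −0.023 for junction partners. Depth limits RNF43 most, at 6 to 20 reads per library.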
